A study of Mus musculus with 6 samples.

Results

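The genes described here are 42 genes of cholesterol metabolism, named one by one and read from the deposited expression values of mouse colonic organoids by gene symbol. All 42 symbols were among the 25067 genes of the deposited values, and 41 had a mean normalized count of at least 10 over the 6 libraries and were tested. The exception was Npc1l1. The genes were ordered along the pathway as 9 genes of the mevalonate arm, 11 of the post-squalene arm, 9 of uptake and of the regulation of SREBP2, 5 of sterol trafficking, 2 of ester storage and 6 of export under LXR.

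Colonic crypts of C57BL/6 mice aged 8 weeks were grown as organoids, which are epithelial cultures that bud and renew in a matrix with added WNT3A, EGF, Noggin and R-spondin. All 6 libraries carried Prkci f/f and Prkcz f/f together with Villin-CreERT2, so that the genes for both atypical protein kinase C isoforms are floxed and Villin, a promoter of intestinal epithelial cells, drives a Cre recombinase that 4-hydroxytamoxifen (4-OHT) activates. Of these, 3 were from cultures given 4-OHT on passage, described as a double knockout of both genes, and 3 from cultures given ethanol, the vehicle, described as wild type although they carried the same alleles. RNA was taken after 3 days. No 4-OHT library without Cre or without floxed alleles was analysed here, so loss of atypical PKC, Cre activity and 4-OHT cannot be told apart. The labels do not say whether the cultures came from separate mice, so the p-values measure only the spread between these libraries, which may be technical.

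The libraries held 15804709 to 26957612 reads. Prkcz went from normalized counts of 880, 904 and 954 in vehicle to 287, 265 and 290 in 4-OHT, and Prkci from 3603, 3526 and 3430 to 2869, 3105 and 3089. On the log2 scale Prkcz fell by 1.70 (limma adjusted p = 3.2e-12) and Prkci fell by 0.22 (limma adjusted p = 0.00081), so transcripts counted on Prkci remained in 4-OHT. The labels do not give the exon that Cre removes, and a count over the whole gene does not show whether that exon was present. Epithelial markers (Epcam, Cdh1, Krt8) were high in all libraries and summed to 253176 to 260799 in vehicle and 340233 to 369199 in 4-OHT over 7 genes. Of the 7, 5 rose, Cdx2 fell by 0.26 (limma adjusted p = 6.9e-05) and Cdx1 did not pass. Krt8 was the largest part of the sum, at 131818 to 138703 in vehicle and 189303 to 208226 in 4-OHT. The sum of 10 small-intestinal absorptive markers was 102 to 148 in vehicle and 204, 493 and 381 in 4-OHT replicates 1, 2 and 3, and the numbers of members higher and lower are also given without 4-OHT replicates 2 and 3. Of 8 Paneth cell markers 6 rose and none fell, with sums of 678 to 953 in vehicle and 1087, 2147 and 2007 in 4-OHT. Defa21, Defa22, Defa24, Mptx2 and Reg3g were at 0 to 4.26 in vehicle and 0 to 4.13 in 4-OHT replicate 1. In 4-OHT replicates 2 and 3 they were at 23.9 to 376. Most of the sum in 4-OHT replicate 1 was Ang4 (855). All 10 markers of dividing cells fell, with sums of 33356 to 34948 in vehicle and 18376 to 20440 in 4-OHT. Whether any of these shifts took part in the differences between sterol genes was not tested, and in bulk RNA fewer cells of a type and less RNA per cell cannot be told apart.

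As background, cells make cholesterol from acetyl-CoA through mevalonate, farnesyl diphosphate and squalene, and then through lanosterol and a chain of sterol intermediates. When sterol in the membrane of the endoplasmic reticulum is low, SCAP escorts SREBP2 to the Golgi, where the proteases encoded by Mbtps1 and Mbtps2 release its active part, and INSIG proteins hold SCAP back when sterol is plentiful. Oxysterols activate the LXR receptors, which turn on genes of cholesterol export, and excess cholesterol is esterified for storage. In the gut this balance sits beside dietary uptake and the fast renewal of the epithelium.

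The promoters of 4 members are printed because SREBP2 acts on its targets together with the CCAAT-binding factor NF-Y, and because these 4 moved in different ways. They are Hmgcs1, an early enzyme that did not pass the threshold, and Lss, the synthesis gene with the largest fall after Lbr. The others are Hsd17b7, the only member whose rise passed the threshold under every alternative fitted, and Insig1, a sterol sensor that fell. Each run is the 250 bases before the RefSeq start on GRCm38.p6, read 5′ to 3′ on the gene's strand. Capitals mark CCAAT on either strand (ATTGG on the strand shown), CACGTG and TCACNCCA.
Hmgcs1, chr13:119690101-119690350, plus strand: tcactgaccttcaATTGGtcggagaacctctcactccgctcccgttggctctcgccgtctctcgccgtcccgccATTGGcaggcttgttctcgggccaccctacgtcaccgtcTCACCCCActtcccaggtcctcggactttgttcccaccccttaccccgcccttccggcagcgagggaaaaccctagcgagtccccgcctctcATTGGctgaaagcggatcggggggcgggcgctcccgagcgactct
Lss, chr10:76531355-76531604, plus strand: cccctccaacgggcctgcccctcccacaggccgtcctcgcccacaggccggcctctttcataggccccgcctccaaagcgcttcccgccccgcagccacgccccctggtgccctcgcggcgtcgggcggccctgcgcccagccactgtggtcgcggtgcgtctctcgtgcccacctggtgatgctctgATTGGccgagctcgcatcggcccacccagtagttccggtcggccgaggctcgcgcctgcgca
Hsd17b7, chr1:169969206-169969455, minus strand: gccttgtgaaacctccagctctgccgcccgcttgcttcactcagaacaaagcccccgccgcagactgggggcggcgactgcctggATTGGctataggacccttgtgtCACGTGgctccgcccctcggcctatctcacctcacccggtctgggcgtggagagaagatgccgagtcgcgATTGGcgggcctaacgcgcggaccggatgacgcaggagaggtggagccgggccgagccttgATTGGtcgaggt
Insig1, chr5:28071162-28071411, plus strand: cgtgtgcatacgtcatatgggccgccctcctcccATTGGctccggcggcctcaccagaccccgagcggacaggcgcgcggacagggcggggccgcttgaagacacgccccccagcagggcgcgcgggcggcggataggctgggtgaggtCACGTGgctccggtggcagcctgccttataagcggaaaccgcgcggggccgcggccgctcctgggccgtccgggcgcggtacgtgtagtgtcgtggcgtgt

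RefSeq promoters were matched for 33 of the 42 members. CCAAT was found on either strand in 24 of the 33 (72.7%), against 37.5% of all 27025 genes with RefSeq promoters of the same length. In the sequences above it began 237, 176 and 45 bases before the start of Hmgcs1, 62 before that of Lss, 165, 73 and 12 before that of Hsd17b7 and 216 before that of Insig1, each time in the opposite orientation. Of the 24 genes with CCAAT, 8 were lower and 4 higher in 4-OHT (against 21% and 22.7% of all genes tested), so these letters stood before genes that moved either way. CACGTG, the E-box, which reads the same on both strands, was in 7 members (21.2%, against 6.86% of all genes), Hsd17b7 and Insig1 among them. The whole sterol regulatory element and the LXR response element of the DR4 type were in none of the 33 windows, and in 0.0814% and 0.0148% of all genes. TCACNCCA, the inner letters of the sterol regulatory element, was added after the first search and was in Hmgcs1, Msmo1, Srebf2 and Apoe (12.1%, against 4.20%). These are matches of letters in a short window and say nothing of binding or of a cause.

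Across the pathway, 7 of the 41 tested members rose in 4-OHT (17.1%, against 22.7% of all 13210 genes tested) and 12 fell (29.3%, against 21% of all genes), with limma on log2(normalized count + 1) and an adjusted p under 0.05. In either direction 19 passed (46.3%, against 43.6% of all genes), a share close to the background, so the number called is no result about these genes in itself. Of these, 4 also moved by more than 0.5 on the log2 scale (9.76%, against 14.2%), namely Lbr, Soat2, Abcg1 and Nr1h3. Vehicle and 4-OHT values did not overlap for 27 members (65.9%, against 52.1%), 11 with all 4-OHT values above and 16 with all below. The counts given below for each step are to be read beside the same shares over all genes. The median log2 fold change was -0.01 over the members and -0.01 over all genes. With 4-OHT replicates 2 and 3 left out, 2 members were higher and 8 lower, in a fit that was added after seeing the data, takes its spread from the vehicle libraries alone and assumes that the lone 4-OHT library varies like them. The number higher was 4 without any one of vehicle replicates 1, 2 and 3 or 4-OHT replicates 2 and 3, and 9 without 4-OHT replicate 1.

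**Figure D1:**
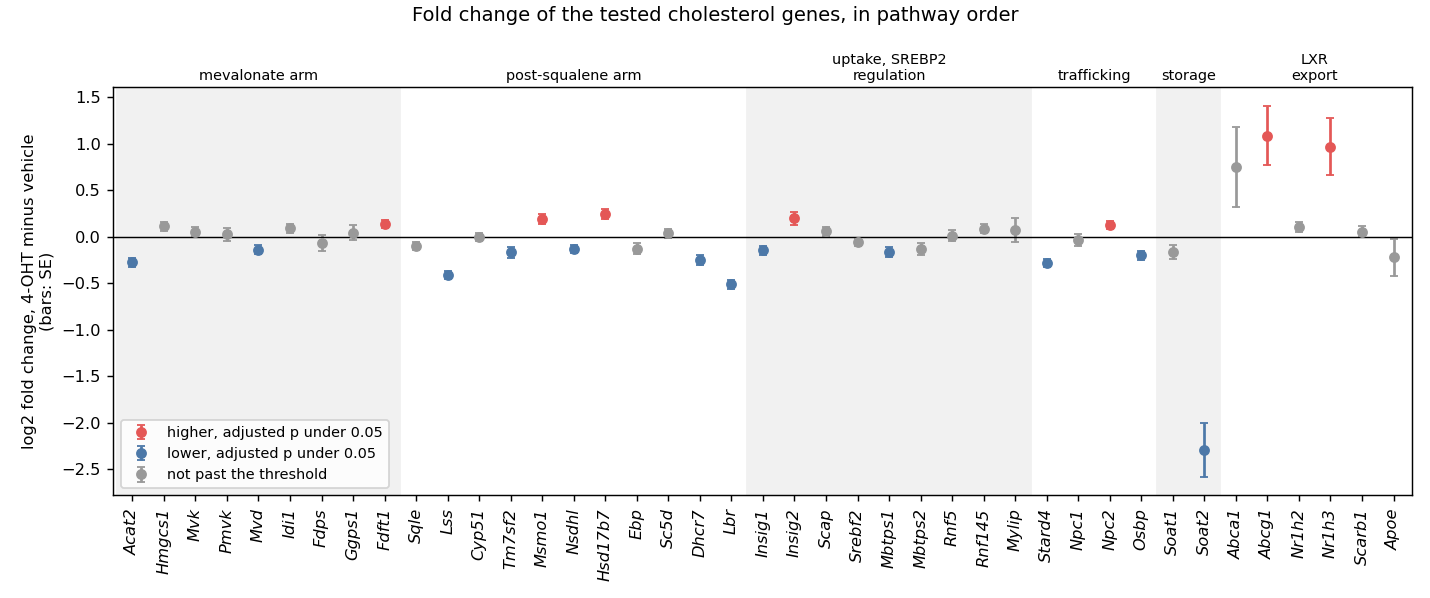
Log2 fold change of each tested member, 4-OHT minus vehicle (vertical axis, log2 scale), in pathway order (horizontal axis), as the fitted value with its standard error from 3 libraries per group. Most synthesis and regulation genes sit within 0.3 of 0, while Soat2 (-2.29) lies far below and Abcg1 (1.09) and Nr1h3 (0.97) lie above.

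Levels between genes can be compared only per length, here as the vehicle mean normalized count per kilobase of merged exons. The highest was Srebf2, the gene of the sterol-responsive transcription factor, at 2424, followed by Msmo1 at 2416 and Mvd at 2336. Sqle, Insig1, Hmgcs1 and Cyp51 followed at 1872, 1816, 1808 and 1777. Srebf2 and Msmo1, and likewise Insig1 and Hmgcs1, differed by less than the SD between replicates and have no order. The median was 868 in the mevalonate arm and 921 in the post-squalene arm, against 20.7 for the export genes. Export was split by gene, since Nr1h2, the broadly expressed LXR isoform, stood at 945 and Scarb1 at 339, while Abca1 (1.04), Abcg1 (3.85) and Nr1h3 (6.99) were near the bottom with Npc1l1 (1.30). The lengths come from GENCODE vM21 on GRCm38, while the processing notes name GRCm39.

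**Figure D2:**
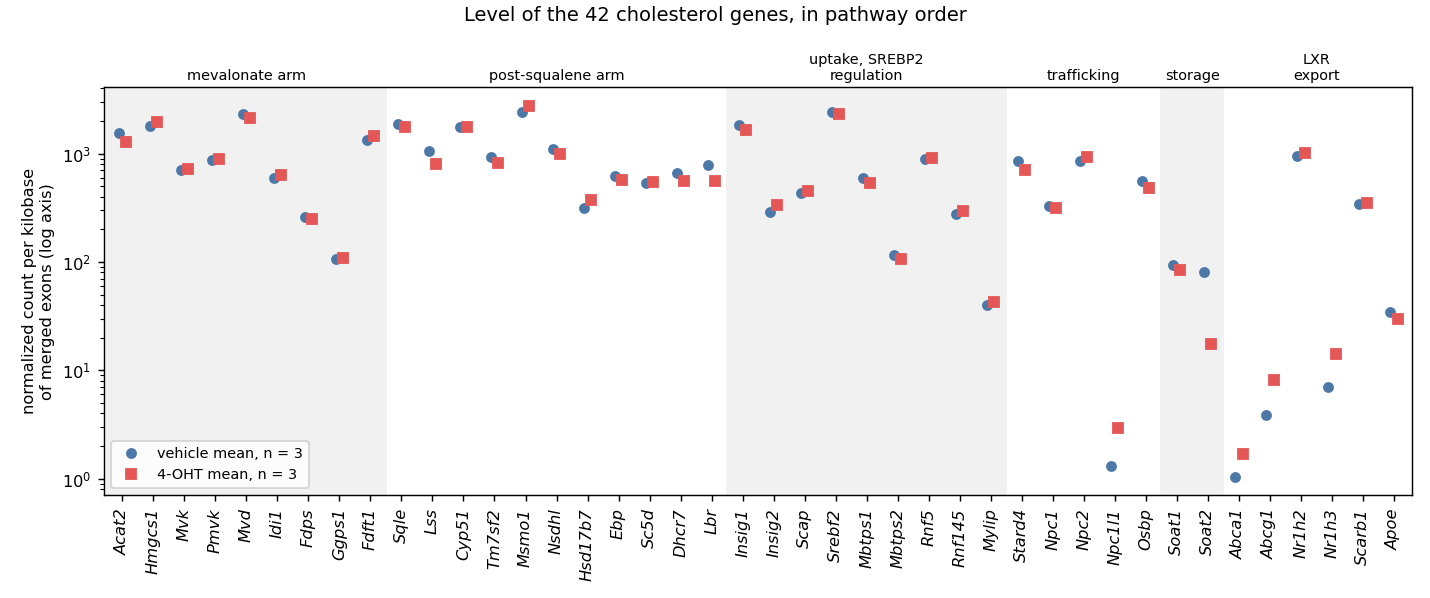
Mean normalized count per kilobase of merged exons (vertical log axis) of all 42 genes in pathway order (horizontal axis), for vehicle and 4-OHT with n = 3 libraries each. Synthesis genes lie between Ggps1 (106 in vehicle) and Msmo1 (2416 in vehicle), and the low genes are Npc1l1, Abca1, Abcg1 and Nr1h3.

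In the mevalonate arm, 1 of 9 genes rose, 2 fell and 6 did not pass the threshold, and the median log2 fold change was 0.04. Acat2, the cytosolic thiolase that joins acetyl-CoA units at the head of the pathway, had normalized counts of 3729, 3948 and 3805 in vehicle and 3037, 3387 and 3060 in 4-OHT. All 4-OHT values lay below all vehicle values, a fall of 0.28 on the log2 scale (SE 0.05, limma adjusted p = 0.00015). By 50-base words, 39.1% of the annotated Acat2 sequence is shared with Acat3, whose mean normalized count was 7.49, and 11.2% overlaps Tcp1 on the opposite strand. Mvd, the decarboxylase that makes isopentenyl diphosphate, went from 3996, 4048 and 4261 to 3714, 3899 and 3562. It fell by 0.14 (SE 0.05, limma adjusted p = 0.023), with groups that did not overlap, but the call was lost without vehicle replicate 3 (0.089) or without 4-OHT replicate 3 (0.13).

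Fdft1, squalene synthase, which commits farnesyl diphosphate to sterols, was the one gene of the arm that rose. It had 4874, 4858 and 5111 in vehicle and 5358, 5474 and 5433 in 4-OHT, which is 0.13 higher on the log2 scale (SE 0.04, limma adjusted p = 0.017). The groups lay apart, and the call was lost without vehicle replicate 1 (0.069), vehicle replicate 2 (0.082) or 4-OHT replicate 3 (0.055) and with quantile normalization. Of the annotated Fdft1 sequence, 17.2% overlaps Ctsb on the opposite strand, and Ctsb was itself higher by 0.15 (limma adjusted p = 0.0066), with the strand setting of the counting not given in the sources used here. Whether Ctsb reads took part in the Fdft1 difference was not tested.

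Hmgcs1, which condenses acetoacetyl-CoA with acetyl-CoA just before the rate-limiting step of the pathway, did not pass the threshold. Its normalized counts were 6359, 6242 and 6286 in vehicle and 6451, 7124 and 6824 in 4-OHT. All 4-OHT values lay above vehicle, 4-OHT replicate 1 by the least, with a log2 fold change of 0.11 (SE 0.04, 95% interval 0.02 to 0.20, limma adjusted p = 0.053). It passed with genes limited to a mean count of at least 50 (0.048) and without 4-OHT replicate 1 (0.15, adjusted p = 0.014). For Idi1, the isomerase of isopentenyl diphosphate, all 4-OHT values (1898 to 1920) also lay above vehicle (1753 to 1870) without passing (0.09, limma adjusted p = 0.16). Mvk, Pmvk, Fdps and Ggps1, the kinases and prenyl synthases between them, overlapped between the groups at log2 fold changes of -0.06 to 0.05. Fdps shares 26.2% of its annotated sequence with other genes and Idi1 17.7%, so their counts are uncertain. These are shares of the words of all annotated transcripts, not of the reads, and how far the counts are affected was not tested.

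In the post-squalene arm 2 of 11 genes rose, 5 fell and 4 did not pass, with a median log2 fold change of -0.13. All 4-OHT values lay below vehicle for 7 genes and above for 2. Of all genes tested 22.7% rose, 21% fell and 52.1% had groups that did not overlap. Lss, lanosterol synthase, which closes the sterol rings, had normalized counts of 4952, 5023 and 4951 in vehicle and 3752, 3770 and 3712 in 4-OHT. The 3 libraries of each group were nearly alike and the groups lay far apart, a fall of 0.41 (SE 0.04, limma adjusted p = 1.8e-07). Sqle, the monooxygenase just before it and a rate-limiting step, went only from 4995, 5220 and 5270 to 4926, 4787 and 4770, all below vehicle without passing (-0.10, 95% interval -0.19 to -0.01, limma adjusted p = 0.079). With quantile normalization Sqle passed at -0.16 (adjusted p = 0.0040).

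Both genes that encode a sterol C14-reductase fell. Lbr, which is also the lamin B receptor of the inner nuclear membrane, went from 2749, 2675 and 2912 to 1910, 1892 and 2041. Its fall of 0.51 (SE 0.05, limma adjusted p = 1.2e-07) left a wide gap between the groups and was the largest of the synthesis genes. Tm7sf2, the reductase with no known lamin role, went from 1521, 1517 and 1642 to 1391, 1467 and 1310, a smaller fall of 0.17 (SE 0.06, limma adjusted p = 0.024) that was lost without vehicle replicate 3 (0.11) or 4-OHT replicate 3 (0.13). Cyp51, the C14-demethylase that feeds both, did not differ detectably, at 6865, 6987 and 7099 against 6723, 7272 and 6862 (-0.01, 95% interval -0.10 to 0.08).

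The 3 enzymes that together remove the methyl groups at carbon 4 of the sterol did not move one way. Msmo1, the C4 methyl oxidase, had 4906, 5050 and 4862 in vehicle and 5108, 6042 and 5746 in 4-OHT, and rose by 0.19 on the log2 scale (SE 0.05, limma adjusted p = 0.0075). In 4-OHT replicate 1 its value was only slightly above vehicle, and with that library as the only 4-OHT sample the log2 fold change was 0.05. With quantile normalization it was 0.11 and did not pass (adjusted p = 0.075). Nsdhl, the decarboxylating dehydrogenase, went the other way, from 2332, 2417 and 2358 to 2135, 2175 and 2176, a fall of 0.13 (SE 0.05, limma adjusted p = 0.029). That call was lost without vehicle replicate 1 (0.052), vehicle replicate 2 (0.12), 4-OHT replicate 1 (0.064) or 4-OHT replicate 3 (0.061), and with no filter on low values (0.053). Hsd17b7, the keto-reductase that completes the cycle, rose from 1570, 1637 and 1544 to 1876, 1868 and 1871, with 4-OHT values almost identical to each other and well above vehicle. The rise of 0.24 on the log2 scale (SE 0.05, limma adjusted p = 0.00059) passed under all 16 alternatives.

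Dhcr7, which reduces 7-dehydrocholesterol to cholesterol at the end of the chain, went from 2086, 2245 and 2235 to 1780, 1900 and 1830. Its groups did not overlap and it fell by 0.25 (SE 0.05, limma adjusted p = 0.00048). The isomerase Ebp (-0.13, limma adjusted p = 0.085) had all 4-OHT values (964 to 1013) below vehicle (1045 to 1134) without passing, and the desaturase Sc5d overlapped between the groups (0.03, limma adjusted p = 0.59). Over both synthesis arms, 3 of 20 genes rose (against 22.7% of all genes tested), 7 fell (against 21%) and 10 did not pass, with a median of -0.04.

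**Figure D3:**
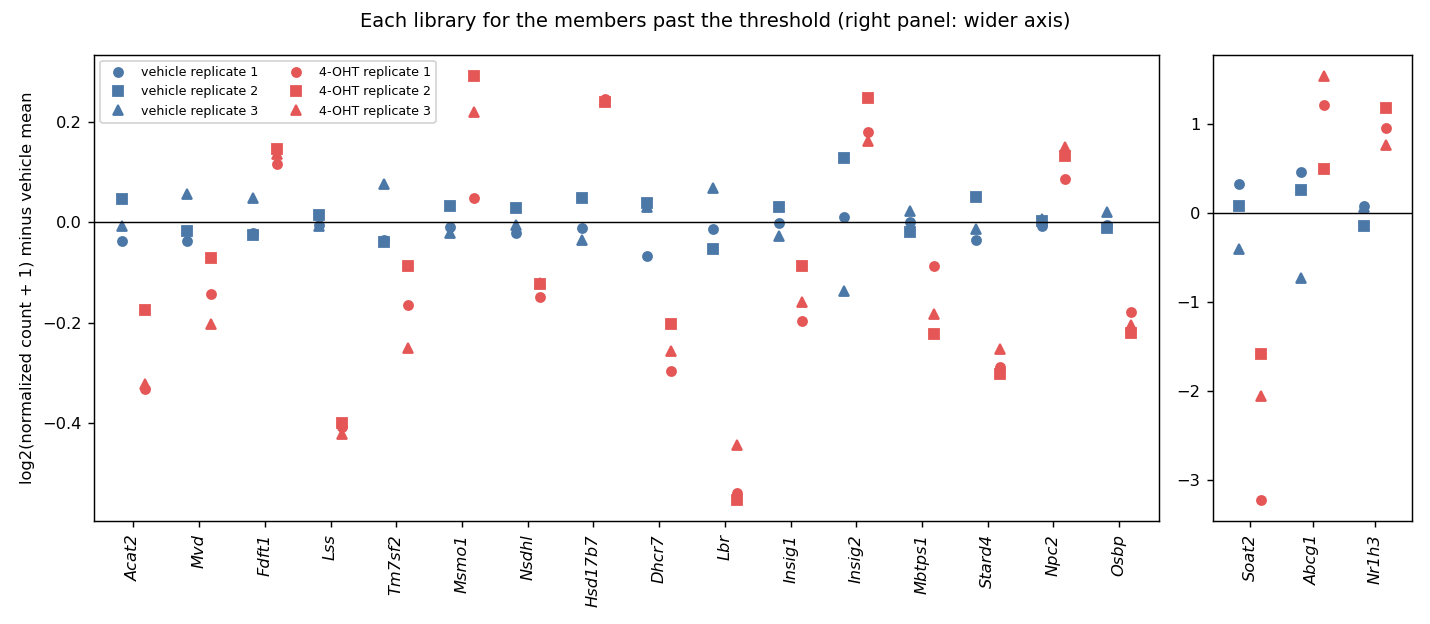
Each library's log2(normalized count + 1) minus the vehicle mean (vertical axes, log2 scale, wider on the right) for the 19 members past the threshold (horizontal axis), with n = 3 vehicle and 3 4-OHT libraries by colour and replicate by symbol. Lss and Hsd17b7 show the tightest 4-OHT values, and Msmo1 shows 4-OHT replicate 1 close to vehicle.

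Of the 9 genes of uptake and SREBP2 regulation, 1 rose, 2 fell and 6 did not pass, and the median log2 fold change was 0.01. The 2 INSIG genes, whose proteins retain SCAP in the endoplasmic reticulum, moved in opposite directions. Insig1, itself a target of SREBP2, went from 4893, 4998 and 4805 to 4275, 4612 and 4385 and fell by 0.15 (SE 0.04, limma adjusted p = 0.011), with no overlap. The call was lost without vehicle replicate 2 (0.061). Insig2 went from 866, 939 and 782 to 974, 1021 and 962, all above vehicle, and rose by 0.20 (SE 0.07, limma adjusted p = 0.026), a call that was lost without vehicle replicate 1 (0.056), vehicle replicate 3 (0.15) or 4-OHT replicate 2 (0.085), and with DESeq2 (0.053).

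Srebf2 itself had 12535, 12141 and 12245 in vehicle and 11910, 11656 and 11849 in 4-OHT. All 4-OHT values lay below vehicle, yet the difference did not pass (-0.06, SE 0.04, 95% interval -0.14 to 0.02, limma adjusted p = 0.24). With quantile normalization it passed at -0.19 (adjusted p = 0.00056). Scap, the escort, overlapped at 1827, 1810 and 1898 against 2027, 1842 and 1890 (0.06, 95% interval -0.05 to 0.17, limma adjusted p = 0.41). Mbtps1, the site-1 protease that makes the first cut of SREBP2, went from 2586, 2551 and 2626 to 2434, 2216 and 2279, below vehicle in every library, and fell by 0.16 (SE 0.05, limma adjusted p = 0.010). With 4-OHT replicate 1 as the only 4-OHT library its log2 fold change was -0.09. Mbtps2, the site-2 protease, was below vehicle in all 4-OHT libraries without passing (-0.13, limma adjusted p = 0.092), and 28.9% of its annotated sequence is shared with other genes, mostly with Yy2, which lies inside it. The ubiquitin ligases Rnf5, Rnf145 and Mylip, of which Mylip targets lipoprotein receptors, stood at log2 fold changes of 0.01, 0.09 and 0.07, none past the threshold (limma adjusted p = 0.93, 0.17 and 0.69).

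In sterol trafficking 1 of the 4 tested genes rose and 2 fell, with a median log2 fold change of -0.12. Stard4, a soluble carrier that moves cholesterol between membranes, had 4366, 4631 and 4428 in vehicle and 3662, 3627 and 3753 in 4-OHT. The groups lay clearly apart, a fall of 0.28 (SE 0.04, limma adjusted p = 3.3e-05). Osbp, which exchanges cholesterol for phosphatidylinositol 4-phosphate between the endoplasmic reticulum and the Golgi, went from 2473, 2463 and 2518 to 2195, 2132 and 2156 and fell by 0.20 (SE 0.05, limma adjusted p = 0.0015). Both calls held under all 16 alternatives. Npc2, the lysosomal carrier that hands cholesterol to Npc1, went from 2785, 2804 and 2813 to 2971, 3068 and 3105, above vehicle in each 4-OHT library, and rose by 0.12 (SE 0.05, limma adjusted p = 0.034). Leaving out 1 library ended the call in 5 of 6 fits, all but the one without 4-OHT replicate 1, with adjusted p from 0.051 to 0.12, and quantile normalization gave 0.07 (adjusted p = 0.22). Its partner Npc1 overlapped between the groups (-0.03, 95% interval -0.17 to 0.10, limma adjusted p = 0.72). Npc1l1, the gut transporter of dietary cholesterol, had normalized counts of 5.6, 2.13 and 9.68 in vehicle and 3.10, 16.6 and 19.4 in 4-OHT, too low for the test, with the highest values in 4-OHT replicates 2 and 3.

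The largest difference among the members was in ester storage. Soat2, the acyltransferase that esterifies cholesterol in absorptive gut cells and liver, had normalized counts of 217, 183 and 131 in vehicle and 17.6, 57.0 and 41.0 in 4-OHT. These rest on 233, 258 and 108 reads against 17, 55 and 36. Even the lowest vehicle library was above the highest 4-OHT library, and the group means were 177 ± 43.6 and 38.5 ± 19.8 (SD, n = 3 each), a 4.6-fold lower mean in 4-OHT. The log2 fold change was -2.29 (SE 0.29, limma adjusted p = 2.7e-06) and ranged from -3.23 to -1.82 over 16 alternatives, with the call kept in each. Soat1, the form found in most cells, had 851, 804 and 726 against 669, 720 and 730, with overlap at vehicle replicate 3, and did not pass (-0.17, SE 0.07, limma adjusted p = 0.068). Without vehicle replicate 3 it passed (-0.23, adjusted p = 0.020).

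Absorptive markers moved differently from Soat2. The small-intestinal absorptive sum was lowest in the 4-OHT group in replicate 1 (204), the library in which Soat2 was also lowest, and was higher in every 4-OHT library than in vehicle. Of 10 absorptive markers, 6 were tested, 5 rose and none fell. Of the colonic markers only Car1, a carbonic anhydrase, is given, chosen after its value was seen, and it rose by 0.92 on the log2 scale (limma adjusted p = 2.6e-09). The part of these cells in the fall of Soat2 was not tested.

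Among the 6 export genes 2 rose, none fell and 4 did not pass, and the median log2 fold change was 0.43. Nr1h3, the LXR isoform of macrophages, liver and gut, had normalized counts of 15.9, 13.5 and 15.7 in vehicle and 30.0, 35.2 and 26.2 in 4-OHT, from 13 to 34 reads. Every 4-OHT library was above every vehicle library, 0.97 higher on the log2 scale (SE 0.30, limma adjusted p = 0.014), and the call was lost without vehicle replicate 2 (0.051), without 4-OHT replicate 2 (0.062) and with no filter on low values (0.056). Nr1h2, at a far higher level per kilobase, was above vehicle in each 4-OHT library at 2032, 1988 and 2092 against 1918, 1881 and 1889 without passing (0.10, limma adjusted p = 0.094).

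Abcg1, an LXR target that loads cholesterol onto high-density lipoprotein, had 34.5, 29.8 and 14.5 in vehicle and 58.9, 35.2 and 74.0 in 4-OHT. The groups did not overlap, but 4-OHT replicate 2 was close to vehicle replicate 1. It rose by 1.09 on the log2 scale (SE 0.32, limma adjusted p = 0.0091), which fell short without vehicle replicate 3 (0.72, adjusted p = 0.064) or without 4-OHT replicate 3 (0.86, adjusted p = 0.065). Abca1, the companion LXR target that loads cholesterol onto apolipoprotein A-I, overlapped at 14.9, 4.97 and 12.1 against 20.7, 17.6 and 13.7 (0.75, 95% interval -0.15 to 1.65, limma adjusted p = 0.17). That interval holds both 0 and the fold change of Abcg1, so a difference was not detectable at this depth. Scarb1, the receptor for high-density lipoprotein, and Apoe, the apolipoprotein of remnant particles, overlapped as well (0.05 and -0.22, limma adjusted p = 0.50 and 0.39).

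**Figure D4:**
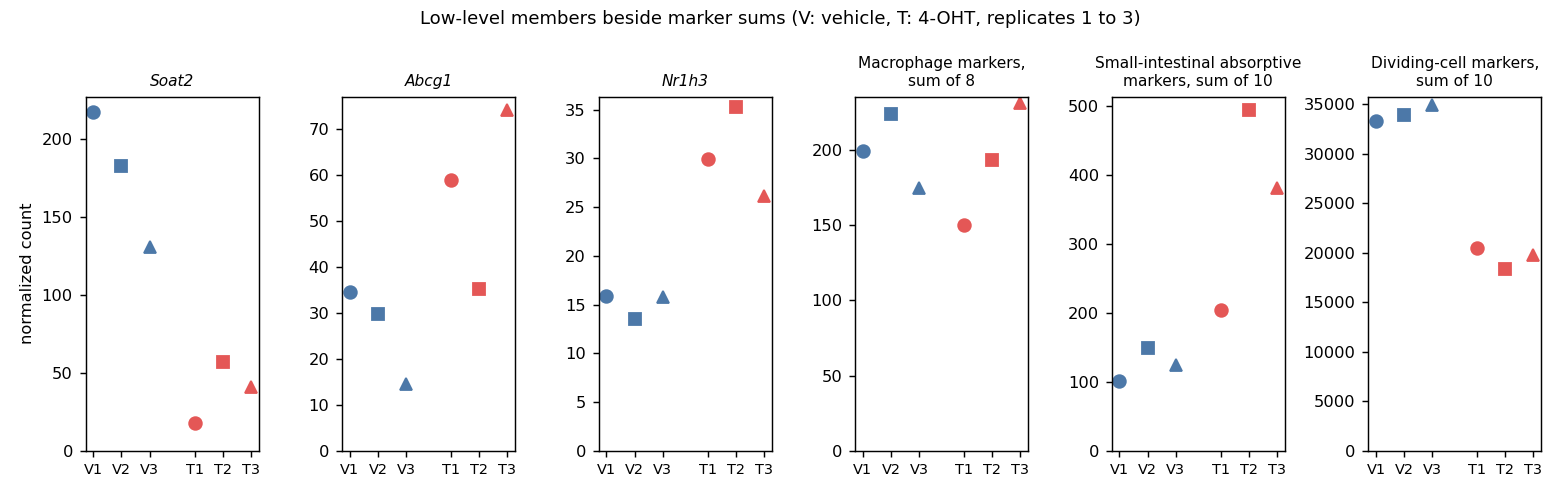
Normalized counts (vertical axes, linear from 0) of Soat2, Abcg1 and Nr1h3 and the summed normalized counts of 3 marker lists in each library (horizontal axes, V vehicle and T 4-OHT, replicates 1 to 3). Soat2 and the dividing-cell sum are lower in every 4-OHT library, Abcg1, Nr1h3 and the absorptive sum are higher, and the macrophage sum overlaps.

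Because macrophages express Nr1h3 and Abcg1, their markers are given beside these genes. The sum of 8 macrophage markers was 174 to 223 in vehicle and 150, 193 and 231 in 4-OHT, most of it Cd68, which fell by 0.42 (limma adjusted p = 0.015), while Csf1r rose by 1.20 (limma adjusted p = 0.030). Adgre1, C1qb, C1qc and Lyz2 were at 0 in all vehicle libraries. In 4-OHT replicate 1 Adgre1, C1qb and C1qc were at 0 and C1qa, Lyz2 and Ptprc at 1.03 each, which is 1 read. Csf1r in that library was at 15.5, against 13.1, 8.51 and 4.84 in vehicle, and Cd68 at 131, against 186, 212 and 165. There Nr1h3 (30.0) and Abcg1 (58.9) were above all vehicle libraries. The part of macrophages in either rise was not tested. In 4-OHT replicate 3 Lyz2 reached 28.5 and C1qa 15.9. Fibroblast markers summed to 5.67 to 20.5 in vehicle and 8.26, 17.6 and 195 in 4-OHT, smooth muscle markers to 2.80 to 13.3 and 14.5, 65.3 and 164, plasma cell markers to 0 and 1.03, 211 and 70.6, and vessel markers to 40.0 to 56.7 and 35.1, 56.0 and 54.6. With 4-OHT replicates 2 and 3 left out, the log2 fold change was 1.22 for Abcg1 and 0.95 for Nr1h3, values that rest on 1 4-OHT library.

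Ratios of 2 members within a library do not depend on the library scale, and 10 pairs were compared. The log2 ratio of Insig1 to Insig2 was 2.50, 2.41 and 2.62 in vehicle and 2.13, 2.17 and 2.19 in 4-OHT, lower by 0.34 in the mean, with no overlap. For Lss to Sqle, neighbours in the pathway, it was -0.01, -0.06 and -0.09 in vehicle and -0.39, -0.34 and -0.36 in 4-OHT, so the ratio was lower in every 4-OHT library than in any vehicle library. Soat1 to Soat2 went from 1.96, 2.13 and 2.46 to 5.17, 3.64 and 4.12, and Nr1h3 to Nr1h2 from -6.83, -7.02 and -6.82 to -6.04, -5.78 and -6.27. The mean log2 ratio also differed without overlap for Scap to Srebf2 (0.12 higher), Fdft1 to Fdps (0.20 higher) and Insig1 to Scap (-0.20). For these 7 pairs the two-sided exact permutation test gave p = 0.1, the smallest that 3 against 3 libraries allow, and 0.14 after Benjamini-Hochberg adjustment over the 10 pairs, so none could reach 0.05. Abcg1 to Abca1, Npc1l1 to Npc1 and Mbtps2 to Mbtps1 overlapped (exact permutation p = 0.8, 0.3 and 0.7).

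**Figure D5:**
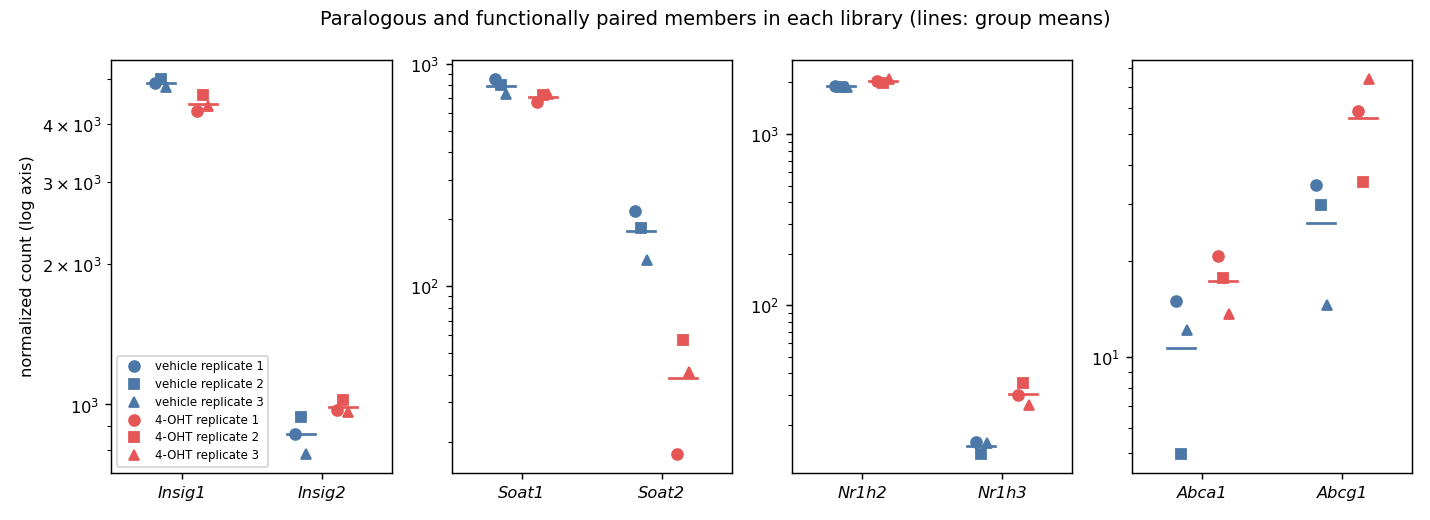
Normalized count (vertical log axes) of 4 pairs of members in each library, by group colour and replicate symbol, with lines at the group means (n = 3 each). Insig1 is lower and Insig2 higher in 4-OHT, Soat2 drops while Soat1 overlaps, and Nr1h3 and Abcg1 are higher.

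The other sterol genes were taken from a list of 57, of which 55 were found and 52 tested. Among them 17 rose and 13 fell (against 22.7% and 21% of all genes tested), with a median log2 fold change of 0.05, and 8 fell without 4-OHT replicate 3. In the ester storage and export group 5 of 11 tested genes rose and none fell, among them Arl4c, a small GTPase and LXR target, from 594, 529 and 627 to 1084, 988 and 1117 (0.87, limma adjusted p = 1.4e-08). Apoa1, the main protein of high-density lipoprotein, had the largest rise (3.20, limma adjusted p = 0.018) but followed 2 libraries, at 0, 1.42 and 8.47 in vehicle and 1.03, 103 and 84.2 in 4-OHT, and it is also one of the absorptive markers. In the oxysterol and isoprenoid group 2 of 13 rose and 4 fell. Sult2b1, which sulfates cholesterol and oxysterols, rose from 135, 136 and 160 to 250, 295 and 260 (0.90, limma adjusted p = 4.0e-06), with wide separation.

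The 3 largest falls within the list of 57 were in sterol sensing and uptake. Erlin1, a membrane protein that binds cholesterol and restrains SREBP activation, went from 452, 526 and 516 to 335, 297 and 299 and fell by 0.68 (limma adjusted p = 3.8e-06). Its group held 7 genes, of which 2 rose and 3 fell. Lrp1, an endocytic receptor of apolipoprotein E particles, went from 1484, 1373 and 1108 to 789, 832 and 861 and fell by 0.67 (limma adjusted p = 1.6e-06). Vldlr, the receptor of very-low-density lipoprotein, went from 2265, 2255 and 1967 to 1358, 1482 and 1486 and fell by 0.58 (limma adjusted p = 2.0e-07). All 3 had groups that lay well apart. In their group of lipoprotein uptake and sterol transfer, 8 of 21 genes rose and 6 fell.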

How the data were processed

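RNA of 6 organoid libraries was read from 1 table of normalized counts. The submitters' processing notes name STAR, DESeq2 and the build GRCm39, with no versions, and the strand setting and annotation are not given in the sources used here. Per the deposited values, this signal is the authors' gene count divided by 1 size factor per library. All values (100%) were whole reads within 0.1 reads, and the recovered factors equal DESeq2's median of ratios. No column was left unmapped.

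Of 25067 genes, 1754 were 0 throughout and 13210 with a mean of at least 10 were tested with limma 3.58.1 (limma-trend, R 4.3.3) on log2(normalized count + 1), without covariates, with Benjamini-Hochberg adjustment over all genes tested and a threshold of 0.05. Fold changes on this scale understate the change of low genes. Intervals are 95% intervals of the fit. Groups follow the treatment labels. Replicates differed by 3.49 to 6.44 times counting variance (chi-square per degree of freedom), so none is a copy. Alternative settings used a pseudocount of 0.1 or 10, no filter, a mean of at least 50, TMM, quantile normalization, a replicate block, each library left out, edgeR 4.0.16 and DESeq2 1.42.0 on recovered reads and, added after seeing the data, 4-OHT replicates 2 and 3 left out together. On simulated data with 200 genes of 13210 changed by 1 (log2), limma recovered 179 with 8 false calls. No smaller change was simulated. The recovery of changes under 1, the size of most member calls here, was therefore not measured.

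All members were named, those past the threshold with every value, and of the other sterol genes the 3 that rose most and the 3 that fell most. The members and lists were chosen with earlier results of these data known. Exon lengths and shared 50-base words came from GENCODE vM21 (GRCm38), and promoters from RefSeq (GRCm38.p6). These builds differ from GRCm39, and the table holds no coordinates. The colonic marker list as a whole is not reported here.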

Additional observations from a re-analysis of the deposited data

How the results depend on the processing

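Of 653 values of single members under the alternatives, 589 kept their direction and their side of the threshold. The calls of Acat2, Lss, Dhcr7, Lbr, Stard4, Osbp and Soat2 (lower) and Hsd17b7 (higher) held under every alternative fitted, and 11 calls were lost under at least 1. Over the 16 alternatives 2 to 9 members were higher and 8 to 14 lower. With quantile normalization 4 were higher, and with 1 library left out 4 to 9. Without 4-OHT replicates 2 and 3 together, 2 members were higher and, of the other sterol genes, 6 were lower, against 8 to 14 with 1 library left out. Replicate numbers did not pair the libraries (correlations of -0.02 to 0.03 between libraries of the same number). The replicate block gave 17 members past the threshold, 6 higher and 11 lower, and 5637 genes in all.

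Median log2 fold changes moved as follows. Apart from changes in which genes entered a median, the cause was not tested. Leaving out 4-OHT replicates 2 and 3 gave -0.051 in the mevalonate arm, -0.11 in the post-squalene arm and -1.74 in storage. Quantile normalization gave -0.16 in the post-squalene arm and -0.16 in trafficking, which was -0.032 with no filter. Npc1l1, untested in the main fit, was fitted in 4 of the 16 alternatives, the one with no filter among them, and then entered the trafficking median. With no filter that median was the value of Npc1 (-0.032), and without vehicle replicate 1 likewise (0.025). The export median was 0.27 with a pseudocount of 10 and 0.055 with a mean of at least 50, which leaves out its low genes. With 1 library left out, the medians ranged from -0.14 to -0.10 (post-squalene), -0.033 to 0.040 (regulation), -0.15 to 0.025 (trafficking) and 0.21 to 0.56 (export).

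Among genes near 0 and not past the threshold the sign turned. With quantile normalization Pmvk was at -0.0080, Sc5d at -0.027 and Rnf5 at -0.0023. Without 4-OHT replicates 2 and 3, Pmvk was at -0.11, Ggps1 at -0.076, Sc5d at -0.024 and Rnf5 at -0.0085. With 1 library left out Pmvk ranged from -0.044 to 0.10, Ggps1 from -0.0061 to 0.10, Cyp51 from -0.040 to 0.017, Rnf5 from -0.033 to 0.040 and Npc1 from -0.12 to 0.025. The log2 ratio difference ranged from -0.17 to 0.89 for Abcg1 to Abca1 and from -0.028 to 0.071 for Mbtps2 to Mbtps1. Genes of few reads, such as Abca1, Abcg1, Nr1h3 and Npc1l1, are limited by depth.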

Other observations

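Of 8 tested OSBP-related genes outside the 42, which carry sterols and phosphoinositides between membranes, 5 rose, none fell and 3 did not pass, where 22.7% of all genes tested rose. Osbpl5 went from normalized counts of 659, 631 and 642 to 1087, 1116 and 1031 (0.74, limma adjusted p = 1.3e-08) and Osbpl3 from 1545, 1515 and 1554 to 2320, 2385 and 2558 (0.65, limma adjusted p = 5.6e-09), with no overlap in either. Osbpl9 (0.36), Osbpl8 (0.26) and Osbpl11 (0.18) also rose, and Osbpl2 (0.03), Osbpl6 (-0.21) and Osbpl10 (-0.02) did not pass. Vapb, a membrane anchor of this family, rose by 0.39 on the log2 scale (limma adjusted p = 2.5e-06). All 3 tested receptors of the LDL receptor family, Vldlr, Lrp1 and Lrp8, fell, by 0.53 to 0.67 on the log2 scale, where 21% of all genes fell. Plin2, the coat protein of lipid droplets, went from 3583, 3367 and 3395 to 5118, 5745 and 5444 (0.66, limma adjusted p = 2.6e-09). These families were picked out after the values were seen, so the counts describe these libraries and no test was made of them.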
